A study of Mus musculus with 20 samples.

Results

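A set of 10 genes that carry fatty acids into and through cells was followed by RNA-seq in mouse liver. It was put together around Fabp5, chosen for its low values on a high-fat diet in these same data, with its relatives beside it. The set held 5 fatty acid binding proteins (Fabp1, Fabp2, Fabp4, Fabp5 and Fabp7), the fatty acid receptor Cd36, 3 fatty acid transport proteins (Slc27a1, Slc27a2 and Slc27a4) and lipoprotein lipase (Lpl), all matched by gene symbol among the 55487 genes of the count table. Female C57BL/6J mice, 8 weeks old at the start, received chow or a high-fat diet (HFD). The HFD-fed mice then received isocaloric HFDs for 10 weeks in which 50% of the protein came from fishmeal made of salmon by-products, from salmon filet or from beef. Livers were taken at 28 weeks of age, with 5 mice on chow and 15 on HFD, and 1 library was made per mouse. Chow differed from the HFDs in fat content and in protein source alike, so these features of the diets cannot be told apart in a comparison with chow. The HFDs also differed from each other beyond the protein, since the study gives unlike contents of cholesterol, soybean oil and fatty acids. Comparisons between the HFDs are named by protein source, but these features cannot be told apart in them. Only females of 1 strain were studied.

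Free fatty acids are poorly soluble in water. Lpl splits the triglycerides of circulating lipoproteins in capillaries, Cd36 and the Slc27 proteins (FATPs) help fatty acids cross the cell membrane, and several Slc27 proteins also attach them to coenzyme A. Inside the cell, FABPs are small proteins that hold a fatty acid in a barrel-shaped pocket and shuttle it between membranes, enzymes and nuclear receptors. Fabp1 is the abundant form of hepatocytes, Fabp2 that of enterocytes, Fabp4 that of adipocytes and macrophages, Fabp5 the epidermal form and Fabp7 the brain form.

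The libraries held between 42526234 and 70266136 counts. In mouse 31 the sample label read salmon filet whereas the column name in the count table read beef. This mouse was placed with beef, as in the column names, which gave 5 mice in each of the 4 groups. The study describes sequenced groups of equal size, which the column names give and the labels do not. The mice whose label and column name matched were numbered 22 to 27 on salmon filet and 32 to 40 on beef. Values of Fabp5, Fabp2 and Cd36 that rest on mouse 31 are also given with the labelled groups or without this mouse. The labelled groups held 6 salmon filet and 4 beef mice. Protein coding genes took between 93.2% and 95.6% of the counts in 19 libraries and 84.3% in beef mouse 35. The 11 hepatocyte markers examined summed to between 109000 and 142000 CPM in every mouse. CPM values are counts per 1000000 counts of the library, scaled by library composition (TMM) and not corrected for gene length. All values are from whole liver tissue, in which fewer cells of a type and less RNA per cell cannot be told apart.

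Fabp5 (ENSMUSG00000027533) lies on the plus strand of chromosome 3 from 10012548 to 10016607 in GRCm38 and has 4 exons and 408 coding bases. Fabp4 lies 187480 bases away on the minus strand of the same chromosome, from 10204088 to 10208576, and Fabp2 lies farther along it, from 122895072 to 122899506. Between Fabp5 and Fabp4 lie the family members Pmp2 and Fabp9, both listed at 0 counts in all 20 libraries. Fabp1 is on chromosome 6, from 71199827 to 71205023, and Fabp7 on chromosome 10, from 57784881 to 57788450. Of the uptake genes, Cd36 spans 17781690 to 17888801 on the minus strand of chromosome 5. The other 4 are on plus strands, Lpl and Slc27a1 on chromosome 8 (from 68880491 to 68907448 and from 71568882 to 71587302) and Slc27a2 and Slc27a4 on chromosome 2 (from 126552407 to 126588243 and from 29802634 to 29817522). The coding sequences of these relatives are far enough apart for short reads to be assigned. The identity of Fabp5 to Fabp4 over the aligned coding bases was 60.9%, that to Fabp7 55.4%, that to Fabp2 45.3% and that to Fabp1 40.9%. The stretch below shows 60 coding bases, from base 19 to base 78 of Fabp5 and the aligned bases of the other 4, from the GENCODE M21 transcripts. Capitals mark bases identical to Fabp5.
Fabp5: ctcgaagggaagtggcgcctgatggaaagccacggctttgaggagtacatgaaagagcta
Fabp7: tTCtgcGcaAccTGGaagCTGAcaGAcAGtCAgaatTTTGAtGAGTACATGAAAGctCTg
Fabp4: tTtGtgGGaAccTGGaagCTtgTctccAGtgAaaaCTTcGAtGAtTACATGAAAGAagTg
Fabp2: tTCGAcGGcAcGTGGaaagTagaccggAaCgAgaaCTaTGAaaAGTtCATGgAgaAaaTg
Fabp1: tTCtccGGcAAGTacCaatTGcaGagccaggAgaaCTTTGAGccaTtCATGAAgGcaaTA
Of these 60 bases, 37 were shared with Fabp5 in Fabp7, 33 in Fabp4 and 30 each in Fabp2 and Fabp1. None of the 50-base words in the transcripts of Fabp1, Fabp2, Fabp4 and Fabp7 occurred in a transcript of another gene. For Fabp5, 5.48% of such words did, all in 5 processed copies at 93.6% to 98.3% identity (Fabp5l2, Gm13998, Gm14328, Gm6100 and Gm6166). These copies together held between 1 and 69 counts per library, which was between 0.174% and 1.06% of the Fabp5 counts. Fabp2 is overlapped by the antisense gene 4933405D12Rik, which had between 8 and 28 counts per library. Slc27a2 shared 9.8% of its words with the antisense gene Gm26697, which was not in the count table, so reads from that strand cannot be told apart if strand was not used in counting. For Lpl and Slc27a1, 1.4% and 1.43% of the words occurred in other genes.

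By level, Fabp1 stood far above all others. TPM, transcripts per 1000000, divides the counts by a length for each gene. In TPM, Fabp1 averaged 22500 ± 4130 (SD, n = 5) on chow and 22400 ± 3640 (SD, n = 15) on HFD. The deposited values imply lengths that differ widely between FABPs of like coding length (384 bases in Fabp1, 408 in Fabp5). On chow Fabp1 had 4830 CPM and 22500 TPM, whereas Fabp5 had 130 CPM and 95.7 TPM. The order of genes and their shares in TPM thus depend on these lengths. Slc27a2, a very long-chain acyl-CoA synthetase of peroxisomes and the endoplasmic reticulum, followed with 657 ± 169 TPM on chow and 701 ± 133 on HFD. Fabp1 made up 98.9% of the summed TPM of the 5 FABP genes on chow and 98.5% on HFD, and Slc27a2 made up 97.3% and 97.0% of that of the 3 Slc27 genes.

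**Figure D1:**
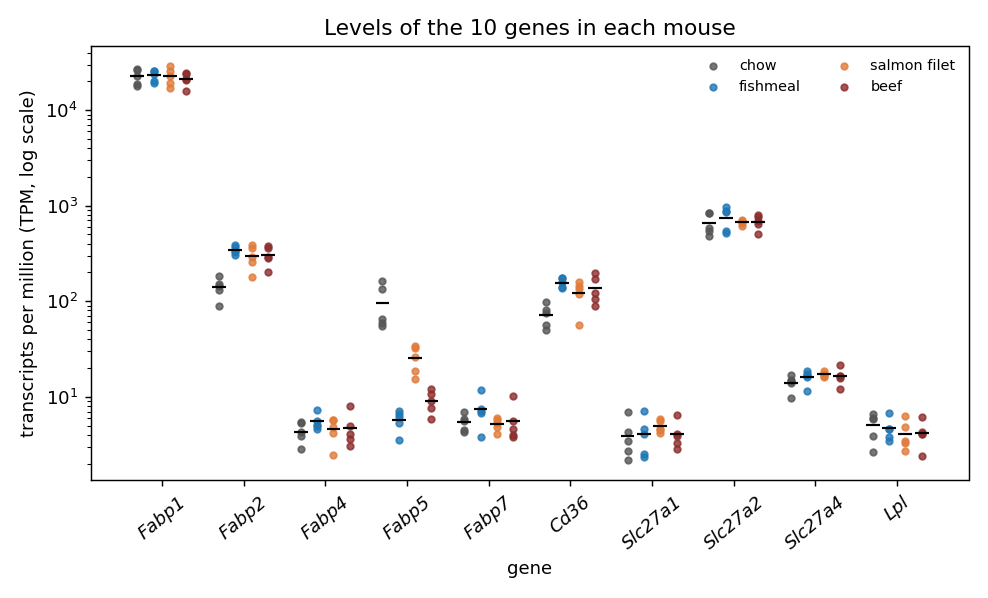
Levels of the 10 genes in TPM (log axis), with 1 point per mouse and a bar at each group mean. Fabp1 lies near 22500 TPM in every group, and only Fabp5 spans more than 10-fold between group means, from 95.7 TPM on chow to 5.73 on fishmeal.

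Next on chow came Fabp2 with 139 ± 34.2 TPM, Fabp5 with 95.7 ± 49.5 and Cd36 with 72.6 ± 19.5, and the ranges of these neighbours overlapped. Slc27a4 lay lower, at 14.0 ± 2.69 TPM, and did not overlap with its neighbours in the order. Fabp7 (5.44 ± 1.08), Lpl (5.01 ± 1.69), Fabp4 (4.33 ± 1.06) and Slc27a1 (3.89 ± 1.84) were the lowest on chow, with overlapping ranges. On HFD, Fabp5 stood at 13.3 ± 9.99 TPM, below Slc27a4 (16.6 ± 2.40) and with a range that overlapped those of Slc27a4 and Fabp7. In fishmeal-fed mice it lay lower still, at 5.73 TPM on average, in the same range as Fabp7, Fabp4 and Lpl. Seen as a ratio within the same liver, Fabp5 was between 13.2 and 30.6 times the Fabp4 level in chow-fed mice, in TPM, and between 0.709 and 1.53 times that level in fishmeal-fed mice.

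Fabp5 was chosen for its fall on HFD, so its values against chow are a description with no test. On chow, Fabp5 measured 80.3, 210, 94.9, 180 and 82.1 CPM in mice 1, 2, 5, 7 and 10. The fishmeal-fed mice 12, 13, 14, 16 and 20 had 12.3, 8.79, 4.86, 8.84 and 7.15 CPM. Chow mice 2 and 7 stood above the other 3 chow mice. The salmon filet-fed mice 22, 23, 25, 26 and 27 had 24.0, 50.2, 37.7, 20.6 and 44.1 CPM. The beef-fed mice 31, 32, 35, 39 and 40 had 10.4, 16.9, 14.8, 8.22 and 15.7 CPM. All 15 HFD-fed mice were below the lowest chow mouse, and salmon filet-fed mice were nearest to chow. No overlap between HFD and chow was seen for 1.74% of the protein coding genes tested.

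**Figure D2:**
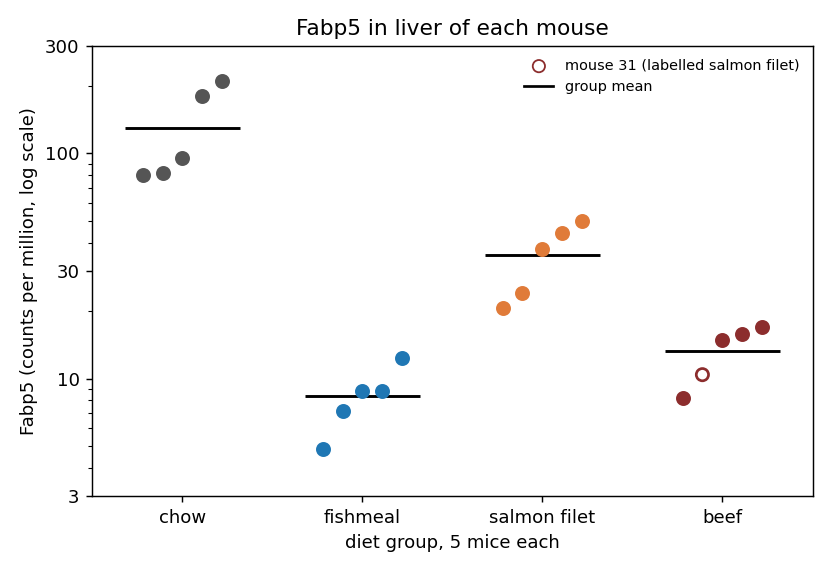
Fabp5 in CPM (log axis) for each mouse by diet group, with the group mean as a bar. All HFD-fed mice lie at or below 50.2 CPM and all chow-fed mice at or above 80.3 CPM. The open circle is mouse 31, labelled salmon filet, which lies at 10.4 CPM.

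The group means were 130 ± 61.2 CPM on chow, 8.38 ± 2.71 on fishmeal, 35.3 ± 12.7 on salmon filet and 13.2 ± 3.72 on beef (SD, n = 5 each). Relative to chow, fishmeal-fed mice retained 6.47%, salmon filet-fed mice 27.3% and beef-fed mice 10.2% of the mean. The log2 fold change against chow was -3.96 (SE 0.341) on fishmeal, -1.87 (SE 0.328) on salmon filet and -3.30 (SE 0.325) on beef, and -2.77 (SE 0.395) for all HFD mice together, a 6.82-fold lower level. With the labelled groups, the value was -2.05 (SE 0.377) for salmon filet and -3.23 (SE 0.360) for beef. These values share the same 5 chow mice and are not independent of each other. Leaving out each of the 20 mice in turn gave -2.95 to -2.53 for all HFD mice together.

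Fabp2, the intestinal form, went the other way in the same livers. It measured 59.2, 45.4, 56.3, 32.0 and 68.1 CPM in chow mice 1, 2, 5, 7 and 10. In the 15 HFD-fed mice the lowest value was 73.2, the median 130 and the highest 145 CPM, so that the ranges of the diets did not overlap. The log2 fold change on HFD was 1.21 (SE 0.164). The level was 2.56-fold that of chow on fishmeal, 2.12-fold on salmon filet and 2.28-fold on beef, or 2.20-fold on salmon filet and 2.19-fold on beef with the labelled groups. Fabp1, the main FABP of hepatocytes, measured 4830 ± 993 CPM on chow and 4930 ± 680 on HFD, and its log2 difference of 0.03 (SE 0.121) was smaller than its error. Fabp4 and Fabp7 were low and overlapped between diets. Fabp4 measured 7.46 ± 1.57 CPM on chow and 8.79 ± 2.33 on HFD, a log2 difference of 0.24 (SE 0.180). Fabp7 measured 2.63 ± 0.537 CPM on chow and 3.01 ± 1.08 on HFD, a log2 difference of 0.20 (SE 0.216), with between 100 and 343 counts per library behind it.

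Among the uptake genes, Cd36 was higher on HFD. Chow mice 1, 2, 5, 7 and 10 had 110, 65.5, 118, 76.5 and 138 CPM, whereas the HFD-fed mice had a lowest value of 84.8, a median of 196 and a highest value of 278 CPM. The overlap came from salmon filet mouse 23 alone, with 84.8 CPM, since the next lowest HFD-fed mouse had 148 CPM. The log2 fold change on HFD was 0.96 (SE 0.203), and it was 1.15 (SE 0.182) on fishmeal, 0.74 (SE 0.250) on salmon filet and 0.96 (SE 0.225) on beef. With the labelled groups it was 0.83 (SE 0.243) on salmon filet and 0.89 (SE 0.239) on beef. Without mouse 23 the salmon filet value was 0.91. The values of the 3 Slc27 genes overlapped between diets. Slc27a4, which activates long-chain fatty acids, measured 23.9 ± 4.67 CPM on chow and 29.5 ± 5.67 on HFD, a log2 difference of 0.30 (SE 0.136). Slc27a2 measured 959 ± 275 CPM on chow and 1050 ± 161 on HFD (log2 difference 0.13, SE 0.139). Slc27a1, the form best known from muscle and fat, measured 8.77 ± 4.21 CPM on chow and 10.2 ± 3.26 on HFD (log2 difference 0.22, SE 0.240). Beef mouse 35, whose protein coding share was low, had the highest value of Slc27a1 (17.4 CPM) and of Slc27a4 (44.0 CPM) in all 20 mice. Without it the HFD means were 9.71 CPM for Slc27a1 and 28.4 CPM for Slc27a4. Lpl measured 20.2 ± 6.71 CPM on chow and 18.0 ± 4.85 on HFD, a log2 difference of -0.17 (SE 0.197).

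**Figure D3:**
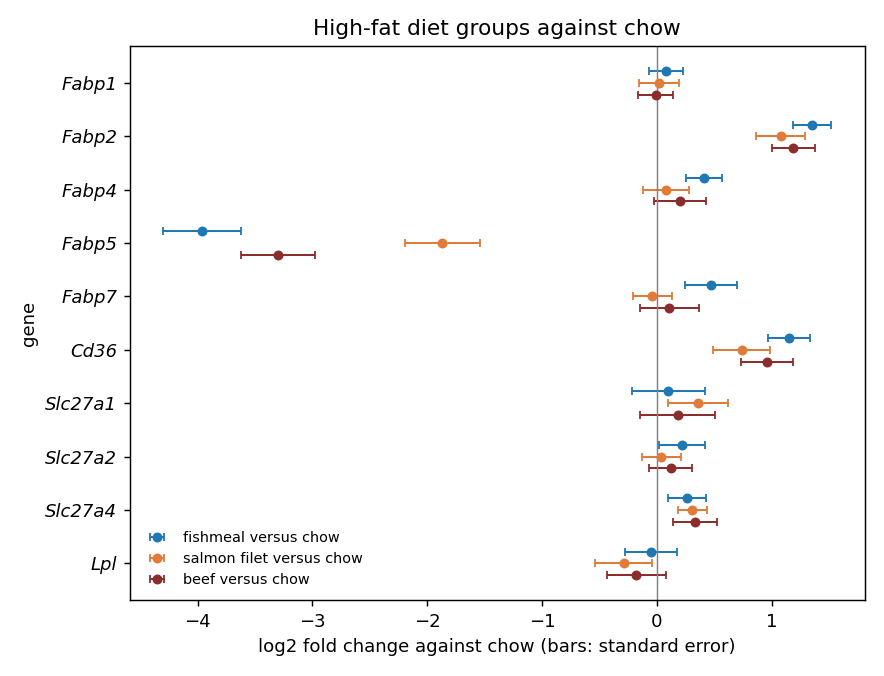
Log2 fold change of each gene in fishmeal-, salmon filet- and beef-fed mice against chow, with bars for the standard error. Fabp5 lies between -3.96 and -1.87, Fabp2 above 1.0 on each diet and Cd36 between 0.74 and 1.15, and the other 7 genes lie within 0.5 of 0. The 3 comparisons share the chow mice.

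All 10 genes had enough counts to enter each fit. At an adjusted p under 0.05 (edgeR), 3 of the 10 (Fabp5, Fabp2 and Cd36) were called between HFD and chow, beside 10.3% of the 13702 protein coding genes tested (649 higher and 766 lower). The set was chosen with this contrast known, and the count is given for scale only. The median log2 fold change was 0.21 for the 10 genes and 0.01 for all protein coding genes tested.

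The rule that chose the set did not use the comparisons between protein sources, and these were tested. The study had already named Fabp5 as low on fishmeal in these libraries, so the tests of Fabp5 are not tests of an unseen result. Confidence intervals below are for single genes and are not adjusted for the number of genes tested, unlike the adjusted p-values. Fabp5 was lower in fishmeal-fed than in salmon filet-fed mice, by -2.09 on the log2 scale (SE 0.272, 95% confidence interval -2.68 to -1.50, adjusted p = 0.00745, edgeR). This is a 4.26-fold lower level, and no fishmeal value (4.86 to 12.3 CPM) reached the lowest salmon filet value (20.6 CPM). Of the 10 genes it alone was called, beside 0.178% of all protein coding genes tested (24 of 13456, all lower in fishmeal-fed mice). Ranges without overlap between these diets were seen for Fabp5 alone in the set and for 177 of the 13456 genes. Omitting any single mouse of the 10 kept the call, with values from -2.26 to -1.93 and adjusted p from 0.00654 to 0.0390. With mouse 31 counted as salmon filet, as labelled, the value was -1.90 (SE 0.353) and the adjusted p was 0.0606, which is no longer a call. An exact two-sided permutation test of this single gene's log2 CPM gave p = 0.00866 with the labelled groups. With the groups by column name the lack of overlap fixes its p at 0.00794, the smallest value that 5 against 5 mice allow. These permutation tests were added after the values of Fabp5 were seen.

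Salmon filet-fed mice also had more Fabp5 than beef-fed mice in these data, but the call depended on the test. The log2 fold change was 1.43 (SE 0.259, 95% confidence interval 0.86 to 1.99, adjusted p = 0.678, edgeR) and the ranges did not overlap (20.6 to 50.2 against 8.22 to 16.9 CPM), as for 152 of the 13318 protein coding genes tested. No gene was called by edgeR in this comparison (0.0%), while 660 had an unadjusted p under 0.05. With the labelled groups the value was 1.17 (SE 0.372, adjusted p = 1.0), and without mouse 31 the level was 2.55-fold that on beef (adjusted p = 0.999). DESeq2 gave 1.42 with an adjusted p of 0.000528 and called 5 genes. The study, which also used DESeq2, reported Fabp5 among 5 genes higher on salmon filet than on beef. It also measured Fabp5 by RT-qPCR in all mice of each group, the sequenced ones included, and those values are not used here. The exact permutation test gave p = 0.0857 with the labelled groups. Without mouse 31 (p = 0.0159) and with the groups by column name (p = 0.00794), the exact permutation p was fixed by the lack of overlap. Mouse 31, at 10.4 CPM, lies within the beef range and below all 5 other salmon filet values. Between fishmeal and beef, the ranges of Fabp5 overlapped (4.86 to 12.3 against 8.22 to 16.9 CPM). The log2 fold change was -0.66 (SE 0.246, 95% confidence interval -1.19 to -0.13, adjusted p = 0.999, edgeR) and the exact permutation p was 0.0635, so this difference did not pass the test. With the labelled groups or without mouse 31 it was -0.74 (SE 0.260, adjusted p = 1.0). In this comparison 0.03% of protein coding genes were called (4 of 13354).

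**Figure D4:**
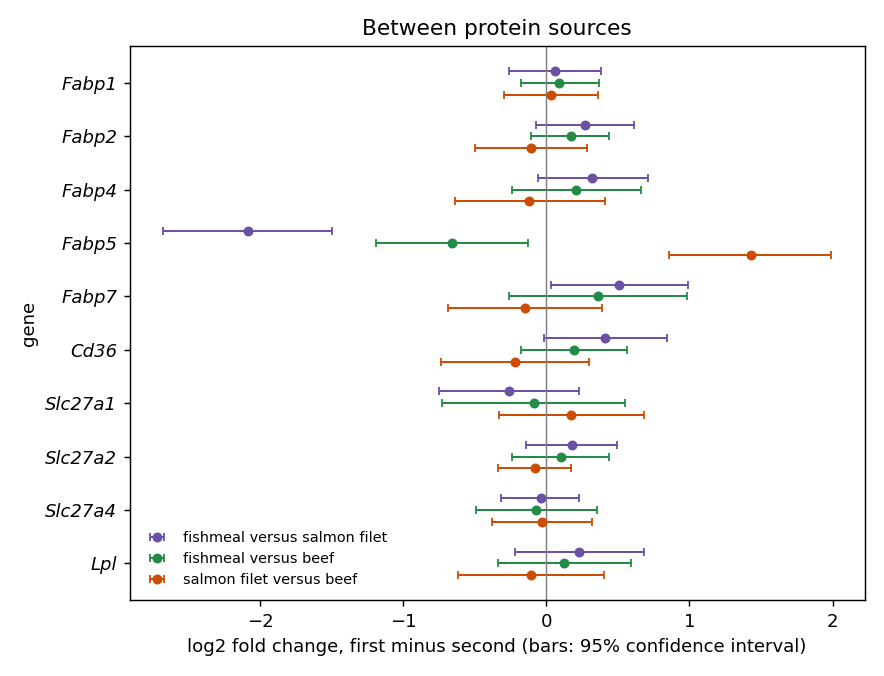
Log2 fold change of each gene between protein sources, first minus second group, with bars for the 95% confidence interval. Fabp5 lies at -2.09, -0.66 and 1.43, whereas the other 9 genes lie between -0.26 and 0.51.

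None of the other 9 genes was called between protein sources, nor with the labelled groups or without mouse 31, where their log2 fold changes lay between -0.33 and 0.58. Fabp7 differed most, with a log2 fold change of 0.51 in fishmeal-fed against salmon filet-fed mice (95% confidence interval 0.03 to 0.99, adjusted p = 0.920, edgeR). This value fell to 0.29 when fishmeal mouse 14 was left out. Cd36 followed at 0.41 (95% confidence interval -0.02 to 0.84) in the same comparison, and fell to 0.24 when mouse 23 was left out. For Fabp2 the interval was -0.07 to 0.61 in fishmeal against salmon filet, -0.11 to 0.44 in fishmeal against beef and -0.50 to 0.28 in salmon filet against beef. For Fabp1 the 3 intervals together spanned -0.30 to 0.38. These intervals leave room for differences of up to about 1.5-fold in Fabp2 and do not show that the levels were equal.

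Fabp2 and Cd36 varied together from mouse to mouse. After the group means were taken out, the log2 CPM of these genes correlated over the 20 mice with Pearson's r = 0.85 (permutation within groups, p = 0.00013, adjusted over 45 pairs 0.00585) and Spearman's rho = 0.89 (permutation p = 2e-05, adjusted 0.0009). Leaving out mice 7 and 23, the farthest from the median of Fabp2, gave r = 0.84. It was 0.86 with the labelled groups, 0.85 without mouse 31, 0.84 without mouse 35 and 0.89 in the 15 HFD-fed mice alone. No other pair of the 45 passed the correction. The next was Slc27a1 with Slc27a4 (r = 0.69, permutation p = 0.00723, adjusted 0.163), where r was 0.62 without mice 10 and 35. The correlations of Fabp5 with Fabp2 (r = -0.40, permutation p = 0.143, adjusted 0.323) and with Cd36 (r = -0.45, permutation p = 0.0833, adjusted 0.268) did not pass.

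**Figure D5:**
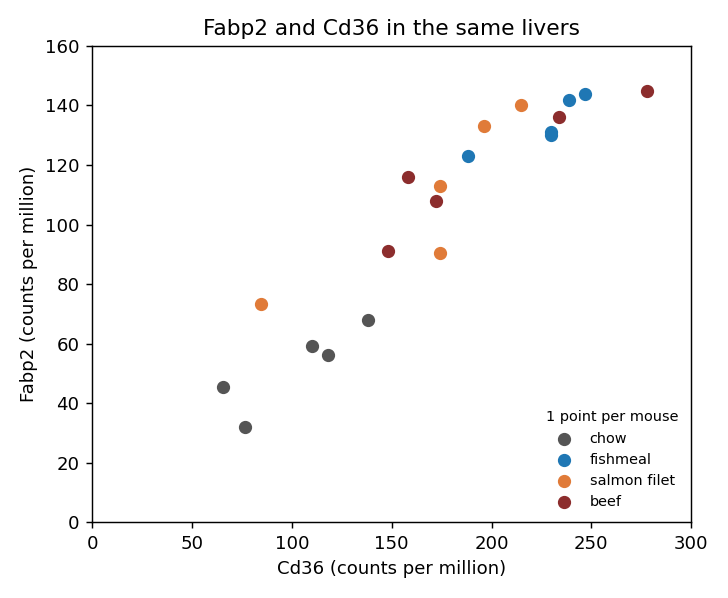
Fabp2 against Cd36 in CPM, with 1 point per mouse in the colour of its diet group. Chow-fed mice lie at the lower left, up to 138 CPM of Cd36 and 68.1 CPM of Fabp2. Salmon filet mouse 23 is the HFD-fed mouse nearest to them.

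The 250 bases before the annotated starts of Fabp2 and Cd36 are shown with those of Fabp1. They are from RefSeq (GRCm38.p6), which held such windows for 7 of the 10 genes. The part of these sequences in the correlation of Fabp2 with Cd36 was not tested. The start used for Cd36 is internal to the gene, which begins farther upstream in GENCODE. The Fabp1 window also runs past the GENCODE start of that gene, at 71199827. Its TATAAA and the AGGTCA nearest its end thus lie inside the gene in GENCODE. Capitals mark matches, on either strand, to the TATA box TATAAA, the CCAAT box, the E-box CACGTG and to AGGTCA (a half-site of nuclear receptors such as the PPARs and HNF4A), its direct repeat spaced by 1 base (DR1), CAAAGTCCA and the palindromic consensus of HNF1. The windows are Fabp2 at chr3:122894822-122895071 on the plus strand, Cd36 at chr5:17835897-17836146 on the minus strand and Fabp1 at chr6:71199629-71199878 on the plus strand.
Fabp2: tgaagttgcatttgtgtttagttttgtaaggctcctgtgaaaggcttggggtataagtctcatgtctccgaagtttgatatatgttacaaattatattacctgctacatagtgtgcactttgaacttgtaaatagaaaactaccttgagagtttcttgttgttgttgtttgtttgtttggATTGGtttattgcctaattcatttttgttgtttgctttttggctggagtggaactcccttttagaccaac
Cd36: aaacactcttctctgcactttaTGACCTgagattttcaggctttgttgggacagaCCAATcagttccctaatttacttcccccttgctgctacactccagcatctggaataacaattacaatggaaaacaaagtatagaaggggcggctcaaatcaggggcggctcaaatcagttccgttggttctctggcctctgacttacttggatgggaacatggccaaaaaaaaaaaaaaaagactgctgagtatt
Fabp1: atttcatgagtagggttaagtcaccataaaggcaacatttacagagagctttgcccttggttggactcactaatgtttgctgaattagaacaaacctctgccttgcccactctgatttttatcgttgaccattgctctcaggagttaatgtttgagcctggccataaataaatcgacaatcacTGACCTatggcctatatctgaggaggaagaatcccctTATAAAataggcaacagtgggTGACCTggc
The Fabp2 window held 1 CCAAT and the Cd36 window 1 CCAAT and 1 AGGTCA. The Fabp1 window held 1 TATAAA, from 30 to 25 bases before the start, and 2 AGGTCA. Over all 32851 windows of this length, CCAAT occurred in 33.8%, AGGTCA in 14.0%, TATAAA in 12.4% and CACGTG in 6.02%. DR1 occurred in 0.0335%, CAAAGTCCA in 0.384% and the HNF1 consensus in 0.00913%. None of these 3 longer motifs, nor CACGTG, was in the 3 windows shown.

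The genes whose level was most like that of Fabp5 were sought among 11565 protein coding genes with a mean of at least 1 CPM. Over all 20 libraries the highest Pearson's r of log2 CPM was with Pmvk (0.92), a kinase of the mevalonate pathway, Aldoc (0.90), an aldolase, the transcription factor Nfe2 (0.87), the tetraspanin Cd9 (0.86) and Selenbp2 (0.86). Pmvk averaged 109 CPM on chow, 25.9 on fishmeal, 68.1 on salmon filet and 44.2 on beef, the same order as Fabp5. This likeness includes the differences between diets, which many genes share. For deviations from the group means, the highest were Cnp (0.74), Ifitm1 (0.70), Acacb (0.70), an acetyl-CoA carboxylase, Pls1 (0.69) and Rfc3 (0.69). No gene was in both lists. Ranked by Spearman's rho, Pmvk, Aldoc and Nfe2 of the first list and Cnp, Ifitm1, Acacb and Rfc3 of the second were again among the first 5. Nfe2 was low, at 0.271 CPM on fishmeal.

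Other genes of the pathway were taken as lists. Among relatives of the FABPs, Fabp3, Fabp6, Fabp9 and Pmp2 had no more than 7 counts in any library. Fabp12, which sits beside Fabp4, had between 8 and 36 counts on chow and between 1 and 15 on HFD, and its difference is not used. Counts of called genes in the lists are to be read beside the 10.3% called among all protein coding genes tested. Among 13 tested genes of fatty acid activation and uptake, 2 were higher and 1 lower on HFD. Acsl4, an acyl-CoA synthetase that prefers arachidonic acid, fell from 75.4 ± 14.3 to 42.6 ± 9.56 CPM (log2 fold change -0.82, SE 0.141, adjusted p = 0.000618). Scp2, a lipid carrier of peroxisomes, rose from 1920 ± 231 to 2560 ± 285 CPM (log2 fold change 0.42, SE 0.0973, adjusted p = 0.00765), and Got2, also known as a fatty acid binding protein of the plasma membrane, rose by 0.28 on the log2 scale (adjusted p = 0.0350). The median over the list was -0.13, against 0.01 for all genes.

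None of the 19 genes of the lipases and the proteins that control Lpl was called on HFD, with a median of 0.12. Of 25 tested PPAR receptors and targets, 3 were higher and 2 lower, with a median of 0.33. Vnn1 (log2 fold change 1.08, SE 0.277, adjusted p = 0.0156) and Mogat1 (1.58, SE 0.440, adjusted p = 0.0246) rose, the latter from a level of 0.373 CPM on chow. The receptor Ppara rose by 0.85 on the log2 scale (adjusted p = 0.0288) and is named after its value was seen. Pdk4, which blocks pyruvate oxidation, fell by 1.29 (SE 0.318, adjusted p = 0.0119) and did not overlap between diets. Ppard, a receptor to which Fabp5 is known to bring fatty acids, fell from 25.9 ± 11.3 to 10.9 ± 5.77 CPM (adjusted p = 0.00811). Of 19 clock genes, 9 were higher and 2 lower on HFD, with a median of 0.87. Dbp, a clock output factor, averaged 1.30 ± 0.689 CPM on chow and 34.0 ± 35.8 on HFD, where it reached 114 CPM in a single mouse. The part of clock phase in the values of the 10 genes was not tested. No gene of these lists was called between protein sources.

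Markers of other cells that express these genes were read beside them. Fabp4 and Lpl are both abundant in adipocytes, and of 7 adipocyte markers 6 were at or near 0. Lep was at 0 counts in all libraries, Adipoq reached 6, Plin1 reached 2, Retn reached 1, Adig reached 4 and Cfd reached 11 counts, while Adrb3 had between 179 and 678. Their summed level was 5.47 to 8.46 CPM on chow and 3.13 to 12.3 CPM on HFD. Of 11 Kupffer cell and macrophage markers none was called on HFD, and their sum was 281 to 708 CPM on chow and 276 to 516 CPM on HFD. Of 7 markers of lipid-associated macrophages, Trem2 was higher, from 0.329 to 0.903 CPM (adjusted p = 0.0105) and Cd9 lower (-1.20, SE 0.159, adjusted p = 4.5e-05). Of 12 markers of liver endothelium, which expresses Cd36 and Fabp4, 3 were lower, with sums of 417 to 474 CPM on chow and 323 to 456 CPM on HFD. All 6 B cell markers and 4 of 8 T cell markers were lower on HFD, beside 10.3% of all genes called. Their sums were 24.2 to 294 CPM and 4.34 to 6.78 CPM on chow, against 10.6 to 30.7 CPM and 1.81 to 5.22 CPM on HFD. The B cell sum had a median of 29.9 CPM on chow and 18.5 CPM on HFD, and Ighm alone reached 281 CPM in a chow mouse. Of the 10 stellate cell and fibroblast and the 4 tested neutrophil markers none was called, and of 7 cholangiocyte markers Sox9 was lower (-0.61, SE 0.177, adjusted p = 0.0301). Of the 11 hepatocyte markers Cyp3a11 was lower (-0.85, SE 0.174, adjusted p = 0.00313). Among exocrine pancreas genes, 1 of the 2 tested (Cela1) was higher (0.77, SE 0.171, adjusted p = 0.00570). None of these markers was called between protein sources, where at most 24 genes were called in all. The part of each cell type in the levels of the 10 genes was not tested.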

How the data were processed

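Liver mRNA of 20 mice was sequenced as strand-specific libraries with 50-base paired-end reads. The authors mapped reads with HISAT2 1.2.1 and deposited unnormalised counts per Ensembl gene made with featureCounts 1.4.6-p1. They also deposited TPM, counts divided by gene length and scaled to 1000000 per library. The build is given as GRCh38, a human build, whereas the gene IDs are of mouse. Of 55487 IDs, 55141 were in GENCODE M21 (GRCm38), used for positions. Strand and multi-mapping settings of the counting are not given in the sources used here.

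Counts were tested with the quasi-likelihood test of edgeR 4.0 (R 4.3, TMM, filterByExpr with a minimum count of 10), with Benjamini-Hochberg adjustment over all genes tested, and calls at an adjusted p under 0.05 were counted among protein coding genes. All adjusted p-values are from edgeR unless another tool is named. Each comparison was fitted on its own groups. TPM served for levels between genes, with the lengths behind the deposited values. DESeq2 1.42, limma 3.58 on log2(TPM + 1), other normalisations, other filters, all groups in 1 fit, other groupings of mouse 31 and leaving out each mouse were alternatives. The exact permutation tests, the added groupings against chow and the checks of Fabp2 with Cd36 were chosen after seeing the data. The edgeR step was tested on simulated counts. Transcripts were compared with blastn 2.17 and coding sequences with Biopython 1.88.

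The 10 genes and all gene lists were chosen with earlier results of these data known. All 10 genes are named, with at most 4 called genes per list and comparison (and Ppara, named after its value was seen), and the 5 genes most like Fabp5 by each measure. Each library came from a different mouse. Counts per library (42526234 to 70266136) give each of the 10 genes at least 100 counts per library, and p-values measure the spread between mice. Replicate libraries differed by more than sampling noise in all 40 pairs within groups. The result of 1 listed gene is not reported here.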

Additional observations from a re-analysis of the deposited data

Results flagged for a closer look

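Cd36 in fishmeal mouse 20, at 188 CPM, lay apart from the other 4 fishmeal-fed mice, which had 230 to 247 CPM. Its gap to the nearest value was 0.714 of the range of the group, against a limit of 0.71. Of 40 groups examined (10 genes in 4 diet groups) it was the only one past the limit, where chance gives about 1 in 20.

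Fabp5 differed between 2 HFD groups, by a log2 fold change of -2.09 in fishmeal-fed against salmon filet-fed mice (adjusted p = 0.00745, edgeR), and so its difference from chow was not of the same size on both diets. Both differences are set against the same chow mice, which drop out of the direct comparison. With mouse 31 counted as salmon filet the value was -1.90 and the adjusted p was 0.0606.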

How the results depend on the processing

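Against chow, all 820 values of the 10 genes under the alternatives lay within 1 SD of the reported ones. Between protein sources, the 513 alternative values of the 9 genes other than Fabp5 stayed uncalled, and 22 uncalled values changed sign. Between fishmeal and salmon filet, Fabp5 lost its call with the labelled groups (-1.90, adjusted p = 0.0606, leaving 0 of the 10 genes called), while between salmon filet and beef it gained one with DESeq2 (1.42, 1 of the 10 genes called). Counts of called genes moved more. HFD against chow gave 816 (without mouse 1) to 1619 (without mouse 12), with 916 without mouse 2 and 877 without mouse 7, and 1858 with DESeq2, 1111 with all genes of at least 1 count and 1008 with limma (333 higher and 675 lower), against 1415 (649 higher and 766 lower). Fishmeal against salmon filet gave 78 with DESeq2 and 12 (without mouse 20) to 34 (without mouse 12), with 13 without mouse 13 and 15 without mouse 16, 25 or 26, against 24. Fishmeal against beef gave 27 with DESeq2, 12 with all genes of at least 1 count, 2 with limma, 1 with the labelled groups or without mouse 31, and 1 to 4 when each mouse was left out (1 or 2 without any mouse but 39), against 4. Salmon filet against beef gave 5 with DESeq2, 1 with all genes of at least 1 count, and 0 to 2 when each mouse was left out (2 without mouse 23), against 0. The causes were not tested. No paired analysis was possible because each mouse number occurs once. With 5 mice per group, the 95% intervals of the 9 genes not called between protein sources reached from -0.75 (Slc27a1) to 0.99 (Fabp7) on the log2 scale.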
